A study of Mus musculus with 67 samples.

Results

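The Hedgehog (HH) receptors and co-receptors are the cell surface proteins through which limb bud cells bind an HH ligand and pass the signal on. The 6 genes described here, *Ptch1*, *Hhip*, *Smo*, *Cdon*, *Boc* and *Gas1*, were chosen by name from the 46983 gene IDs of the deposited RNA-seq tables, and all 6 were listed in each of the 14 libraries. PTCH1 binds the ligand and, without it, holds the transducer SMO inactive. HHIP binds ligand without passing a signal and so takes it away from the receptor. CDON, BOC and GAS1 are co-receptors that present ligand to PTCH1, and *Ptch1* and *Hhip* are also target genes of the pathway, so that their RNA commonly rises where the pathway is on. In the limb bud the ligand SHH is made in posterior mesenchyme, and GLI3, mostly as a repressor, is the main GLI factor that holds target genes down in anterior cells.

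RNA was sequenced from mouse forelimb buds that were WT or *Gli3*-/-, the latter homozygous for the deletion allele *Gli3* Xt-J, and both were kept on a Swiss Webster background. The pre-HH stage was E9.25 (21 to 23 somites), where whole buds were taken and about 4 pairs were pooled per library (WT, n = 3, and *Gli3*-/-, n = 4). The post-HH stage was E10.5 (32 to 35 somites), where only the anterior portion of the bud was taken and 2 pairs were pooled per library (WT, n = 4, and *Gli3*-/-, n = 3). The mutants carry the deletion in every tissue, and p-values measure the spread between these pools. A bud that holds fewer cells of a type cannot be told apart from one with less RNA per cell.

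Values are TPM, a transcript level scaled by transcript length and by the library's total, which can be compared between genes. Libraries held an estimated 38.1 to 56.8 M reads, and a TPM of 1 stood for 20.7 to 29.3 reads per kilobase of transcript. Genes were tested on log2(TPM + 1) with limma if 3 or more of the libraries under comparison had a TPM of 1 or more, and a gene is said to have risen or fallen where its two-sided Benjamini-Hochberg adjusted p over all genes tested was under 0.05. Fold changes on this scale understate the change of genes with low TPM. *Gli3* itself had a TPM of 44.2, 15.8 and 44.6 in the E9.25 WT libraries and of 14.3 to 20.8 in *Gli3*-/-, so that E9.25 WT replicate 2 lay within the range of the mutants. It also had the fewest genes at a TPM of at least 1 (13276, against 14162 or more in the other 13 libraries). Most of the members' limma fold changes and pathway list counts that use it are given with and without it. The E9.25 counts of tissue and position markers are given only with it included. *Gli3* did not pass at E9.25 with all 7 libraries (log2 difference -0.74, limma adjusted p = 0.223) and fell once that library was left out (-1.22, limma adjusted p = 0.0415). At E10.5 *Gli3* had a TPM of 73.4 to 89.7 in WT and 38.7 to 40.9 in *Gli3*-/- and the groups did not overlap. Xt-J removes only the 3′ part of the gene, and the tables give 1 value for the whole gene, so that reads from the part that is left count toward these levels and they check the labels only in part. All 7 limb mesenchyme markers were present, with a summed TPM of 659 to 1231 per library, and each of 9 neural tube markers was under a TPM of 1 in every library.

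The sequence before the start site is shown for the pathway's target genes among the members, *Ptch1* and *Hhip*, and for *Gas1*, the most abundant of the 6 in WT buds. Each is the 250 bases before the RefSeq start in GRCm38.p6, written 5′ to 3′ on the gene's own strand. Capitals mark CCACCC, the core letters of the GLI-binding motif. *Ptch1* lies at chr13:63565736-63565985, *Hhip* at chr8:80058009-80058258 and *Gas1* at chr13:60177536-60177785, all on the minus strand.
Ptch1: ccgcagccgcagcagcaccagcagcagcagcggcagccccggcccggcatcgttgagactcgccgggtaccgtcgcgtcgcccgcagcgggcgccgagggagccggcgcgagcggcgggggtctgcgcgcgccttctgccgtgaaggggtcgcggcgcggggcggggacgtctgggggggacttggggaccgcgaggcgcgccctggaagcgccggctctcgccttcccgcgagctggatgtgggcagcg
Hhip: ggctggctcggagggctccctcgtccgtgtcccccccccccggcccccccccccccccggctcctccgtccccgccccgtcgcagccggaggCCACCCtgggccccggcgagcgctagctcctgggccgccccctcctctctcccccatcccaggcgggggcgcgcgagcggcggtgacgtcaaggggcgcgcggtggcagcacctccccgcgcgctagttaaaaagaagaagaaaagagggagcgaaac
Gas1: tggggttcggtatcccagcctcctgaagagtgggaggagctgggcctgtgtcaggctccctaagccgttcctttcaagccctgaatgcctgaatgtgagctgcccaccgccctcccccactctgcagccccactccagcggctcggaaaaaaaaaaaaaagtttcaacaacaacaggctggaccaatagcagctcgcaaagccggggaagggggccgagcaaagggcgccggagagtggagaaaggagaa
Promoter sequences of 300 bases (250 before and 50 after the start) were on hand for 5 of the 6 genes, all but *Boc*. The 9-letter GLI motif GACCACCCA was in none of the 5 on either strand, against 0.253% of 32851 RefSeq promoters, and the looser GACCNCCCA, which includes it, was in none against 0.977%. The core CCACCC, which is part of GACCACCCA, was found once each in *Hhip* and *Smo*, and 31.5% of all promoters hold it on either strand. These are matches of letters in a short window and say nothing of GLI3 binding elsewhere. The *Ptch1* window was rich in G and C (76.3%, with 47 CpG) compared with the median promoter (52.7%, with 7 CpG), as were those of *Hhip* (73.7%, 30 CpG), *Smo* (67.7%, 17 CpG) and *Gas1* (62.3%, 17 CpG). For *Ptch1* the RefSeq start was 7.86 kb from the start given in the deposited tables, and for *Cdon* it was 30.9 kb away, with 44.7% G and C and 3 CpG in its window. For the other 3 genes it was at most 0.17 kb away.

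The 6 genes differed widely in level. In WT buds of both stages *Gas1* and *Smo* were the most abundant, *Cdon* and then *Boc* or *Ptch1* followed, and *Hhip* was near the limit of detection. The ranges of *Gas1* and *Smo* overlapped in E9.25 WT buds, as did those of *Ptch1* and *Boc*, and neither pair overlapped in E10.5 WT buds. The 6 together had a TPM of 174 ± 28.3 (SD, n = 3) in WT buds at E9.25, 228 ± 43.7 (SD, n = 4) in E9.25 *Gli3*-/-, 343 ± 27.8 (SD, n = 4) in E10.5 WT and 267 ± 23.2 (SD, n = 3) in E10.5 *Gli3*-/- buds. The share of this sum that was *Ptch1* was 3.09% ± 1.36 (SD, n = 3) in E9.25 WT buds, and E10.5 WT buds had 3.10% ± 0.53 (SD, n = 4). In *Gli3*-/- buds it was 12.5% ± 1.05 (SD, n = 4) at E9.25 and 12.6% ± 1.30 (SD, n = 3) at E10.5. The lowest *Gli3*-/- library had 11.1% and the highest WT library 3.92%, so that the genotypes did not overlap at either stage. *Cdon* took 15.0% ± 1.15 (SD, n = 4) of the sum in E10.5 WT buds, against 6.31% to 7.34% on average in the other 3 groups.

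**Figure D1:**
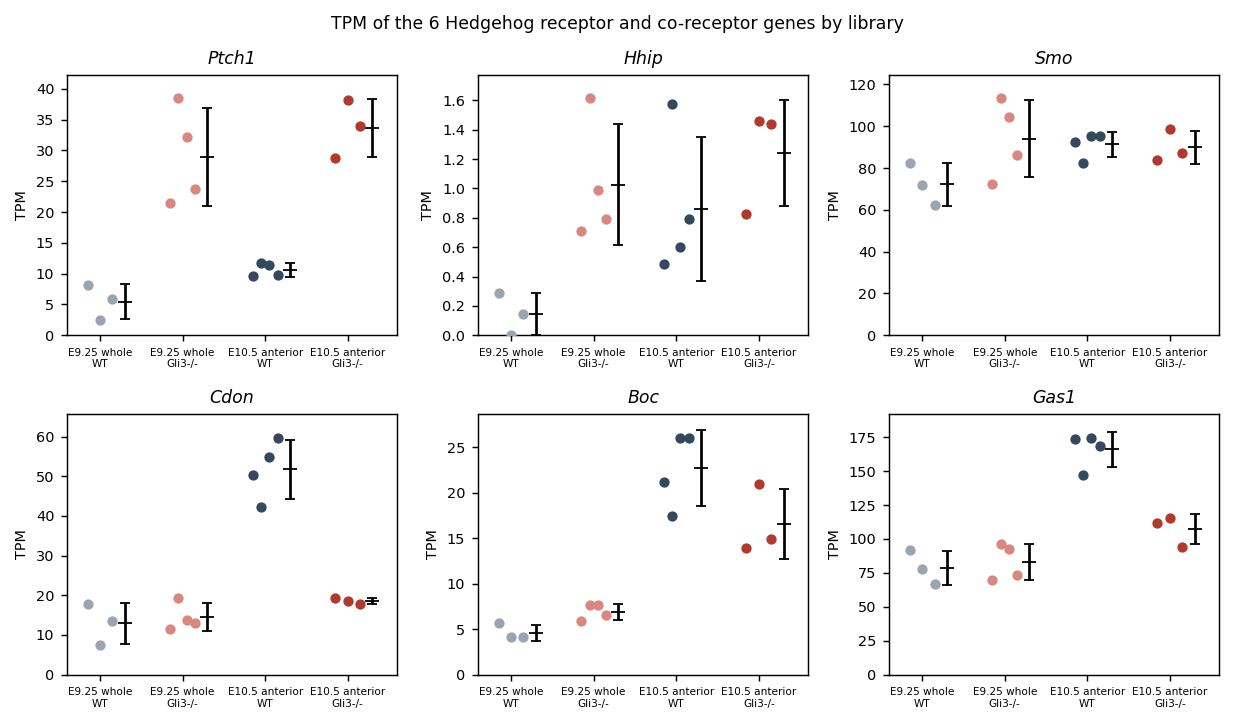
TPM of each of the 6 genes (linear y axis, own scale per gene) in the 14 libraries, by stage and genotype, with 1 point per library and the mean ± SD beside each group. *Ptch1* is higher in *Gli3*-/- than in WT at both stages, *Cdon*, *Boc* and *Gas1* are highest in E10.5 WT, and *Smo* lies between 62.1 and 113 throughout.

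**Figure D2:**
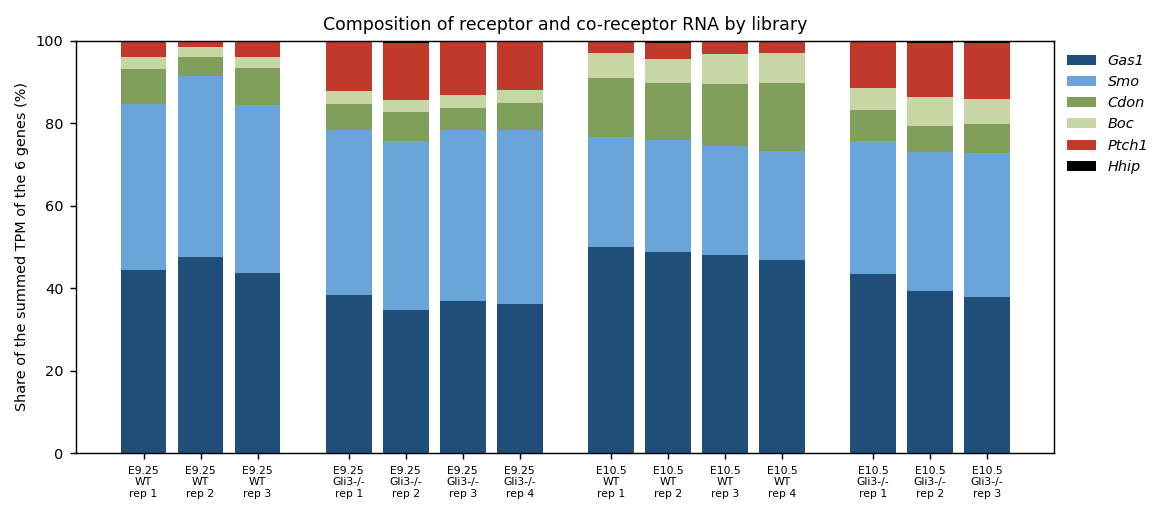
Share (%) of the summed TPM of the 6 genes taken by each gene, 1 bar per library. *Ptch1* takes 11.1% or more in each of the 7 *Gli3*-/- libraries and 3.92% or less in each of the 7 WT libraries.

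*Ptch1* (ENSMUSG00000021466.11, chr13:63508328-63573598) is the receptor. Its TPM in the E9.25 WT libraries was 8.08, 2.48 and 5.82. In the E9.25 *Gli3*-/- libraries it was 21.4, 38.5, 32.2 and 23.7. All 4 mutant libraries lay above all 3 WT libraries, and the lowest WT value was that of replicate 2. At E10.5 its TPM was 9.54, 11.7, 11.3 and 9.70 in WT and 28.7, 38.3 and 33.96 in *Gli3*-/- buds. The groups did not overlap here either. In order, *Ptch1* was lowest in E9.25 WT, next in E10.5 WT and highest in the *Gli3*-/- groups, whose ranges overlapped. *Gli3* and *Ptch1* lie on the same chromosome, 47.8 Mb apart.

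*Hhip* (ENSMUSG00000064325.3, chr8:79966115-80058006), the ligand-binding antagonist, was barely detected. Its TPM was 0.286, 0 and 0.143 in E9.25 WT, and the library listed at 0 was replicate 2. It was 0.707, 1.61, 0.991 and 0.792 in E9.25 *Gli3*-/- buds. At E10.5 it was 0.485, 1.57, 0.599 and 0.794 in WT and 0.828, 1.46 and 1.44 in *Gli3*-/- buds. The groups did not overlap at E9.25 and overlapped at E10.5, and in no library did it reach more than 33.8 estimated reads per kilobase.

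*Smo* (ENSMUSG00000001761.7, chr6:29735503-29761365) encodes the transducer. Its TPM was 82.6, 71.9 and 62.1 in E9.25 WT and 72.3, 113, 104 and 86.1 in E9.25 *Gli3*-/- buds. At E10.5 it was 92.3, 82.6, 95.4 and 95.1 in WT and 83.9, 98.5 and 87.0 in *Gli3*-/- buds. The genotypes overlapped at both stages, and E9.25 WT, the lowest group, overlapped with E9.25 *Gli3*-/- and met E10.5 WT at its highest library without passing it.

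*Cdon* (ENSMUSG00000038119.14, chr9:35421128-35507652) and *Boc* (ENSMUSG00000022687.11, chr16:44485045-44558897) encode related co-receptors of the immunoglobulin superfamily. The TPM of *Cdon* was 17.8, 7.38 and 13.5 in E9.25 WT and 11.4, 19.4, 13.9 and 13.1 in E9.25 *Gli3*-/- buds. At E10.5 it was 50.3, 42.3, 54.9 and 59.8 in WT and 19.2, 18.7 and 17.8 in *Gli3*-/- buds. E10.5 WT stood above every other library, and the other 3 groups overlapped one another.
The TPM of *Boc* was 5.64, 4.10 and 4.13 in E9.25 WT and 5.85, 7.61, 7.64 and 6.51 in E9.25 *Gli3*-/- buds. At E10.5 it was 21.2, 17.5, 26.1 and 26.1 in WT and 13.9, 21.0 and 14.9 in *Gli3*-/- buds. Both E10.5 groups were above both E9.25 groups, the genotypes overlapped at E10.5, and at E9.25 the mutants were just above WT.

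*Gas1* (ENSMUSG00000052957.7, chr13:60174405-60177365) encodes a co-receptor held in the membrane by a lipid anchor and lies 44.4 Mb from *Gli3*. Its TPM was 91.6, 77.9 and 66.6 in E9.25 WT and 69.4, 96.3, 92.5 and 73.7 in E9.25 *Gli3*-/- buds. At E10.5 it was 173, 147, 175 and 169 in WT and 112, 116 and 94.4 in *Gli3*-/- buds. The E9.25 genotypes overlapped, and E10.5 WT stood above every other library. The lowest E10.5 *Gli3*-/- library, at 94.4, was within the range of the E9.25 groups.

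Other annotated features overlap 5 of the 6 genes, and the sources used here do not say whether reads were assigned by strand. They were at a TPM of 0.66 or less for *Ptch1* (A930032L01Rik) and 0 for *Hhip* (Gm27820). For *Smo* (Gm13717) they reached 4.96, for *Boc* (Mir3081) 2.44 and for *Cdon* 4.93 (Gm25630) and 10.9 (Gm24188, on the opposite strand).

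The first comparison was of *Gli3*-/- with WT in whole E9.25 buds, before HH signaling starts. It addresses which receptor genes differ between the genotypes at that stage. *Ptch1* rose and was the 1 of 5 tested members that did, against 0.136% of the 14760 genes tested. The paper's fluorescent in situ hybridization showed *Ptch1* in the neural tube but found none in limb buds of either genotype at this stage. The paper's own test of these RNA libraries called very few genes upregulated, and of those it describes only *Gpx6* as also upregulated at E10.5. As the paper names *Ptch1* as upregulated at E10.5, *Ptch1* was not among its E9.25 calls. In RNA-seq the mean TPM of *Ptch1* went from 5.46 ± 2.81 (SD, n = 3) to 28.9 ± 7.88 (SD, n = 4), a ratio of 5.30. The log2 fold change was 2.28 (SE 0.32, limma adjusted p = 0.0309). Set against the median gene it was 2.06, since the median gene was itself 0.23 higher in *Gli3*-/- buds. Only 16 of all genes tested rose and 4 fell, and the share of calls that were higher was 80% here and 61.5% after quantile normalization. Without E9.25 WT replicate 2 the fold change was 1.89 (limma adjusted p = 0.0197). The call was lost without E9.25 WT replicate 3 (adjusted p = 0.134) or without *Gli3*-/- replicate 1 (0.0923), 2 (0.0750) or 3 (0.152), in limma fits whose fold changes lay between 2.14 and 2.41, and also with a pseudocount of 0.1 (0.0532) or no filter on low TPM (0.306).

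The co-receptors and *Smo* did not pass at E9.25. For *Boc* the difference was 0.50 (95% interval 0.066 to 0.93, limma adjusted p = 0.217), and its groups did not overlap. Non-overlap held for 2 of the 5 tested members, *Ptch1* and *Boc*, beside 13.3% of all genes tested. For *Smo* it was 0.36 (95% interval -0.025 to 0.75, limma adjusted p = 0.240). For *Cdon* it was 0.20 (95% interval -0.41 to 0.82) and for *Gas1* 0.073 (95% interval -0.29 to 0.44), and both turned negative under some scalings. Without E9.25 WT replicate 2 the differences were 0.43 for *Boc*, 0.37 for *Smo*, -0.12 for *Cdon* and 0.072 for *Gas1*, and again none passed (limma adjusted p = 0.433, 0.440, 0.784 and 0.854). *Hhip* was below the level needed for the test. An exact permutation test of its log2(TPM + 1) gave a mean difference of 0.81 and a two-sided p of 0.0571, which is the smallest that the 35 splits of 7 libraries allow, and limma without the filter on low TPM gave an adjusted p of 0.374.

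Markers of neighboring tissues and of bud position also differed between the genotypes at E9.25. Of 8 flank and lateral plate mesoderm markers, 6 were tested and *Gata4* and *Foxf1* rose. Their summed TPM was 22.3 to 60.2 in WT and 74.0 to 212 in *Gli3*-/- libraries, without overlap, and *Nkx2-5* was at 0 in both. The 6 endothelial markers summed to 48.5 to 80.2 in WT and 95 to 152 in *Gli3*-/- libraries. Limma called 0 of 6, with 4 at an unadjusted p under 0.05, beside 3247 of all 14760 genes. The 5 anterior bud markers summed to 93.5 to 107 in WT and 52.4 to 82.1 in *Gli3*-/- libraries. Of the 4 tested, *Lhx2* fell and was the 1 at an unadjusted limma p under 0.05. Its mean TPM was 45.3 in WT and 11.1 in *Gli3*-/- buds. The mean TPM of *Alx4* was also lower in *Gli3*-/- buds, while those of *Irx3* and *Irx5* were higher. The 5 posterior bud markers summed to 39.8 to 69.3 in WT and 68.5 to 109 in *Gli3*-/- libraries, and limma called 0 of 3 tested, with all 3 at an unadjusted p under 0.05, of which *Hand2* and *Tbx2* were higher and *Hoxd13* lower in the mutants. The 7 surface ectoderm and apical ridge markers summed to 183 to 277 in WT and 245 to 394 in *Gli3*-/- libraries, and limma called 0 of 7, with 3 at an unadjusted p under 0.05. Among these the mean TPM of the keratin *Krt8* was 35.3 in WT and 96.7 in *Gli3*-/- buds, that of *Krt18* was 35.2 and 104, and that of the ridge ligand *Fgf8* was 56.4 and 22.7. The part of these tissues in the *Ptch1* difference was not tested. In anterior E10.5 buds the flank markers summed to 3.31 or less in every library, which does not bear on the E9.25 difference.

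**Figure D3:**
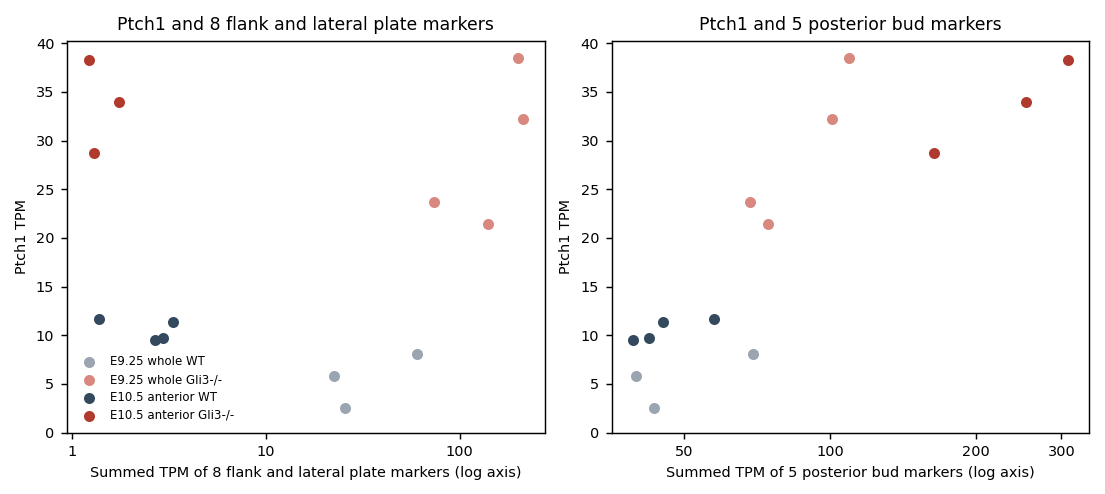
*Ptch1* TPM (linear y axis) against the summed TPM of 8 flank and lateral plate mesoderm markers and of 5 posterior bud markers (log x axes), 1 point per library, colored by group. At E9.25 the 4 *Gli3*-/- libraries are to the right of and above the 3 WT libraries in the flank panel. At E10.5 all 7 libraries have a flank sum of 3.31 or less, and they do not bear on the E9.25 difference.

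The second comparison was of the same genotypes in anterior E10.5 buds, once the pathway is active in the posterior bud. *Ptch1* rose, and the co-receptors *Cdon* and *Gas1* fell, which makes 3 of 6 members called against 4.77% of the 15654 genes tested (1.84% higher and 2.93% lower). The paper names *Ptch1* among the genes upregulated in these same libraries, so that its call here is not a separate test. The mean TPM of *Ptch1* went from 10.6 ± 1.097 (SD, n = 4) to 33.7 ± 4.77 (SD, n = 3), a ratio of 3.19, and 99.9% of genes tested had a lower log2 fold change. The mean TPM of *Cdon* went from 51.8 ± 7.46 (SD, n = 4) to 18.6 ± 0.70 (SD, n = 3), a ratio of 0.358. Its log2 fold change was -1.42 (SE 0.11, limma adjusted p = 0.000335), and 0.447% of genes tested had a lower one. The mean TPM of *Gas1* went from 166 ± 12.8 (SD, n = 4) to 107 ± 11.3 (SD, n = 3), a ratio of 0.646, with a log2 fold change of -0.63 (SE 0.09, limma adjusted p = 0.00521). For these 3 genes the groups did not overlap, as for 19.3% of genes tested.

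*Boc* did not pass at E10.5, with a log2 fold change of -0.43 (95% interval -0.82 to -0.049, limma adjusted p = 0.203). *Hhip* differed by 0.29 (95% interval -0.20 to 0.77, limma adjusted p = 0.519). *Smo* differed by -0.025 (95% interval -0.21 to 0.16, limma adjusted p = 0.904), so that a change of the transducer as large as that of *Gas1* lay outside its interval. The *Ptch1*, *Cdon* and *Gas1* calls held in each of the 7 fits that left out 1 library.

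Markers of bud position moved with these members at E10.5. Of 5 posterior bud markers, *Hoxd13*, *Hoxd12*, *Shh* and *Hand2* rose and *Tbx2* fell, with a summed TPM of 39.3 to 57.8 in WT and 164 to 309 in *Gli3*-/- libraries. *Shh*, listed at 0 in every WT library, entered this test only through the *Gli3*-/- libraries. Of 5 anterior bud markers, *Lhx2*, *Irx3*, *Irx5* and *Alx4*, the 4 that were tested, fell, with sums of 164 to 232 in WT and 49.7 to 65.4 in *Gli3*-/- libraries. Of 7 limb mesenchyme markers 5 fell and 1 rose, with sums of 996 to 1231 in WT and 748 to 782 in *Gli3*-/- libraries. The 7 surface ectoderm and apical ridge markers summed to 210 to 257 in WT and 293 to 327 in *Gli3*-/- libraries, with 1 of 7 called. Their part in the changes of *Ptch1*, *Cdon* and *Gas1* was not tested.

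**Figure D4:**
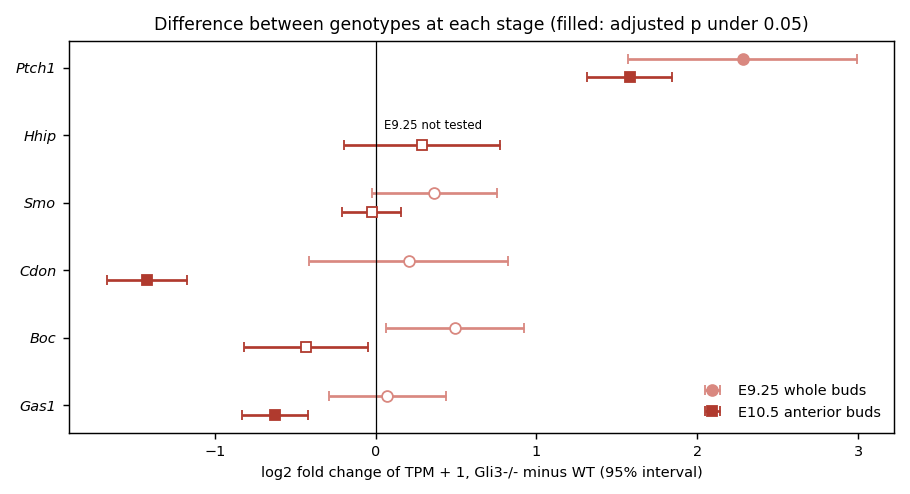
Log2 fold change of TPM + 1, *Gli3*-/- minus WT (x axis), with its 95% interval, for each member at E9.25 (circles) and E10.5 (squares); filled symbols have an adjusted p under 0.05. *Ptch1* is at 2.28 and 1.58, *Cdon* at 0.20 and -1.42 and *Gas1* at 0.073 and -0.63, and *Hhip* was not tested at E9.25.

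Whether the genotype difference itself changed with stage was tested as an interaction in a model of all 14 libraries. It passed for *Cdon* alone, 1 of 6 members, against 2.13% of the 16368 genes tested. The *Cdon* log2 difference at E10.5 minus that at E9.25 was -1.63 (SE 0.32, limma adjusted p = 0.0173), and -1.30 (limma adjusted p = 0.0185) without E9.25 WT replicate 2. Relative to the median gene, which moved by -0.24, it was -1.39. It did not pass without E10.5 *Gli3*-/- replicate 3 (limma adjusted p = 0.0567) or without the filter on low TPM (limma adjusted p = 0.0510), and its adjusted p ranged from 0.00196 to 0.254 over the other settings. The interaction did not pass for *Boc* (-0.93, 95% interval -1.47 to -0.39, limma adjusted p = 0.0717), *Gas1* (-0.70, 95% interval -1.11 to -0.29, limma adjusted p = 0.0767) or *Ptch1* (-0.70, 95% interval -1.51 to 0.10, limma adjusted p = 0.281). For *Hhip* it was -0.52 and for *Smo* -0.39 (limma adjusted p = 0.306 and 0.267). Without E9.25 WT replicate 2 it was -0.31 for *Ptch1*, -0.87 for *Boc*, -0.70 for *Gas1*, -0.43 for *Hhip* and -0.39 for *Smo*, and none of these passed (limma adjusted p = 0.587, 0.139, 0.133, 0.522 and 0.415). The share of calls that were higher was 22.4% here and 45.3% after quantile normalization.

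The stages were then compared within each genotype, which asks how the receptor genes differ between the early whole bud and the later anterior bud. Stage and the part of the bud taken cannot be told apart in these groups, and each comparison shares its libraries with those above. In WT, all 3 co-receptors were higher at E10.5, with *Boc* and *Cdon* at 4.91 and 4.02 times their E9.25 mean TPM and *Gas1* at 2.11 times. The log2 fold changes were 2.07 for *Boc* (SE 0.18, limma adjusted p = 0.000124), 1.99 for *Cdon* (SE 0.25, limma adjusted p = 0.000640) and 1.077 for *Gas1* (SE 0.12, limma adjusted p = 0.000384). These were 2.01, 1.67 and 1.076 without E9.25 WT replicate 2, and all 3 passed. *Ptch1* rose by 0.94 (SE 0.29, limma adjusted p = 0.0275) and *Smo* by 0.34 (SE 0.11, limma adjusted p = 0.0339). All 5 tested members were thus called, against 48.7% of the 15444 genes tested, and 38.1% of genes tested were higher. The groups did not overlap for any of these 5, beside 53.5% of genes tested.

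The median gene was 0.34 higher at E10.5 in WT. Relative to it *Boc* was 1.73, *Cdon* 1.65, *Gas1* 0.74, *Ptch1* 0.60 and *Smo* 0.0046 higher, and *Smo* was -0.020 with median-of-ratios size factors. The share of calls that were higher was 78.3% here and 49.0% after quantile normalization, where *Boc*, *Cdon* and *Gas1* remained called and *Ptch1* (0.45, limma adjusted p = 0.121) and *Smo* (0.28, limma adjusted p = 0.0603) did not. *Ptch1* lost its call without any 1 of the 4 E10.5 WT libraries (limma adjusted p = 0.0517 to 0.0636), and its log2 fold change was 0.55 without E9.25 WT replicate 2 (limma adjusted p = 0.0243). *Smo* lost its call without E9.25 WT replicate 2 or 3 or E10.5 WT replicate 1, 3 or 4 (limma adjusted p = 0.0505 to 0.0945). *Hhip* was too low for the test, with a mean TPM that was 0.143 early and 0.863 late and groups that did not overlap (exact permutation test, two-sided p = 0.0571, the smallest possible), and limma without the filter on low TPM called it higher at E10.5 (0.68, adjusted p = 0.0478).

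In *Gli3*-/- buds, *Boc* alone rose with stage, 1 of 6 members tested against 25% of the 15434 genes tested. Its mean TPM went from 6.90 ± 0.88 (SD, n = 4) to 16.6 ± 3.82 (SD, n = 3), and the log2 difference was 1.14 (SE 0.17, limma adjusted p = 0.000860). *Gas1* differed by 0.38 (95% interval 0.065 to 0.69, limma adjusted p = 0.0759) and *Cdon* by 0.37 (95% interval -0.0071 to 0.74, limma adjusted p = 0.141). *Ptch1* differed by 0.24 (95% interval -0.20 to 0.68), *Hhip* by 0.15 and *Smo* by -0.047, none of which passed. The groups of *Boc* alone did not overlap, beside 35.7% of genes tested. The share of all calls that were higher was 63.2% here and 50.6% with median-of-ratios size factors, with which *Gas1* was also called.

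The other genes of the pathway give the setting of these values. Of the ligands, *Shh* was listed at 0 in all 4 E9.25 *Gli3*-/- and all 4 E10.5 WT libraries. It was at 0.060 or less in E9.25 WT and at 1.17 to 8.67 in the 3 E10.5 *Gli3*-/- libraries. Between genotypes at E10.5 limma called it higher, but it entered that test only through these 3 libraries. With any 1 of them left out it was not tested. *Ihh* and *Dhh*, the other ligands, were under a TPM of 1 in all libraries. At E9.25, 0 of 10 tested genes of ligand processing, release and spread, 0 of 18 regulators of SMO and the cilium and 0 of 2 tested GLI factors passed in limma. At an unadjusted p under 0.05 they were 4, 12 and 2, beside 3247 of all 14760 genes. Their median log2 fold changes were 0.27, 0.48 and 0.041, beside 0.23 over all genes tested. Without E9.25 WT replicate 2, 0, 3 and 1 were at an unadjusted p under 0.05, beside 1621 of all 14690 genes, the medians were 0.25, 0.31 and -0.36, and *Gli3* was the 1 gene called. *Gli1*, the GLI factor too low for the test at E9.25, had a TPM of 0.237 to 0.474 in WT and 0.945 to 2.09 in *Gli3*-/- libraries. Of the listed HH target genes, 2 of 10 tested rose at E9.25, namely *Foxf1* (3.68, limma adjusted p = 0.0125) and *Osr1* (2.09, limma adjusted p = 0.00636). *Foxf1* is also on the flank list. The paper names *Foxf1* and *Osr1* among the genes upregulated in these libraries, so their calls are not a separate test. Its in situ hybridization did not detect *Foxf1* in limb buds of either genotype at this stage. At an unadjusted p under 0.05 there were 9 of these 10 target genes, in both directions. *Hoxd13* (-0.74) and *Hoxd11* (-0.99) were lower in *Gli3*-/- buds and the others were higher. The list's median was 0.74 beside 0.23. *Foxf1* and *Osr1* passed again without E9.25 WT replicate 2, with 8 target genes at an unadjusted p under 0.05 and a median of 0.56. Limma called 0 without E9.25 WT replicate 3, only *Osr1* without *Gli3*-/- replicate 1 or 3, and *Hand2* besides these 2 without E9.25 WT replicate 1.

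At E10.5, 8 of 12 tested HH target genes rose and limma called 0 lower. At an unadjusted p under 0.05 were 10, of which *Ccnd2* (-0.19) was lower, beside 3061 of all 15654 genes. The median log2 fold change was 1.04 beside -0.022 over all genes. The paper names *Hand2*, *Hoxd13* and *Grem1*, besides *Ptch1*, among the upregulated genes of these libraries, so their calls are not a separate test. The largest changes were those of *Hoxd12* (4.03), *Hoxd13* (3.99), *Hoxa13* (2.60) and *Hoxd11* (2.11), homeobox genes of the distal and posterior bud. Of 9 tested genes of ligand processing, release and spread limma called 0, with 5 at an unadjusted p under 0.05, and the median was -0.24. Without E10.5 WT replicate 2, *Ext2*, *Disp1* and *Scube3* of this list were called lower. *Gli1*, the activator that is itself a target, differed by 0.33 (SE 0.31, limma adjusted p = 0.618) in the same libraries where *Ptch1* rose. Of the 18 regulators of SMO and the cilium, limma called 0, with 2 at an unadjusted p under 0.05, and the median was -0.035. Among the GLI factors *Gli3* fell by 1.01 (limma adjusted p = 0.000335).

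**Figure D5:**
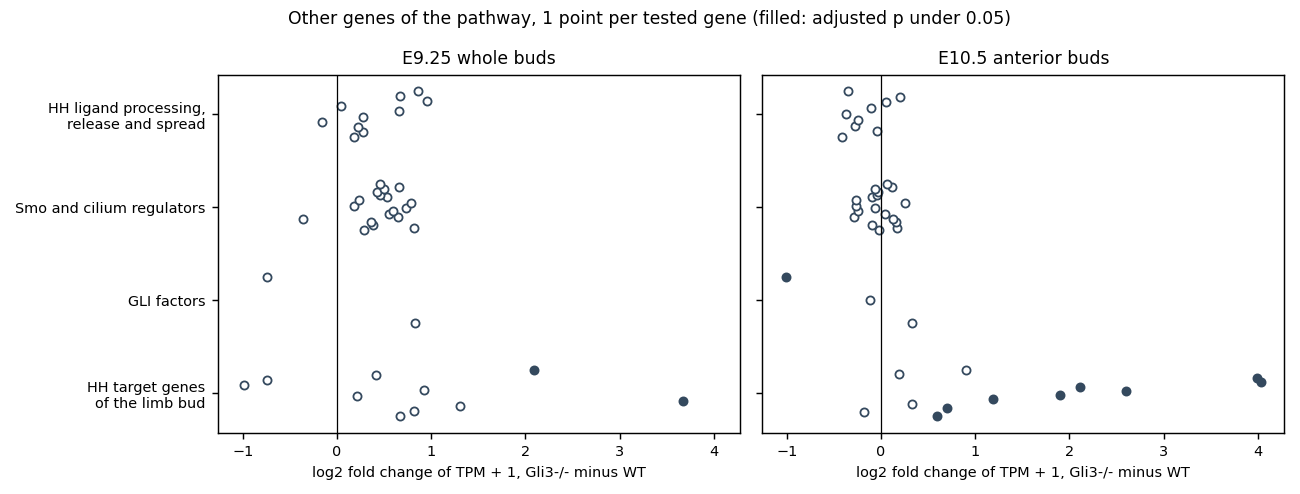
Log2 fold change of TPM + 1, *Gli3*-/- minus WT (x axis), for each tested gene of 4 pathway lists (rows) at E9.25 and E10.5, filled where the adjusted p is under 0.05. Filled points at E9.25 are 2 HH target genes, and those at E10.5 are 8 HH target genes and *Gli3*.

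Between stages in WT, 11 of the 18 regulators of SMO and the cilium rose along with the co-receptors, and limma called 0 lower. At an unadjusted p under 0.05 were 15 in all, beside 8942 of all 15444 genes. The count of 11 stands beside 38.1% of all genes tested that were called higher, and it depended on the scaling. With quantile normalization 6 were called higher and *Efcab7* lower, and without E9.25 WT replicate 2 there were 10 higher. The count was 8 without E10.5 WT replicate 4 and 16 without E9.25 WT replicate 1. The cilium gene *Evc* had the largest of these changes (1.23), followed by the kinase gene *Gsk3b* (0.99), the motor subunit *Kif3a* (0.93) and the ciliary receptor *Gpr161* (0.93). Of 9 tested genes of ligand processing, release and spread 7 rose, among them *Scube1* (1.64), *Gpc4* (0.99), *Gpc6* (0.75) and *Hhat* (0.73), and with quantile normalization 3 did. All 3 GLI factors rose, *Gli1* by 2.23, *Gli3* by 1.34 and *Gli2* by 0.73. *Gli1* had a TPM of 0.237 to 0.474 in E9.25 WT and 3.41 to 9.87 in E10.5 WT libraries. It thus entered this test only through the E10.5 group, where it was high. *Gli3* rose by only 0.86 (limma adjusted p = 0.000406) when E9.25 WT replicate 2 was left out. *Gli2* did not pass without E9.25 WT replicate 2 or 3 or E10.5 WT replicate 1, 3 or 4, nor with quantile normalization. The list medians were 0.62, 0.73 and 1.34 beside 0.34 over all genes, and 0.55, 0.54 and 0.86 beside 0.25 without E9.25 WT replicate 2, where again 7 genes of ligand processing, release and spread rose. In *Gli3*-/- buds 1 of the 18 regulators passed (*Kif3a*, 0.44), as did 4 of 10 genes of ligand processing, release and spread, of which *Scube1* (1.18), *Hhat* (0.74) and *Gpc3* (0.63) rose and *Lrp2* (-1.60) fell. *Kif3a* did not pass without E9.25 *Gli3*-/- replicate 4 or E10.5 *Gli3*-/- replicate 1 or 3, and *Mgrn1* and *Evc* also passed without E9.25 *Gli3*-/- replicate 2.

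Of the HH target genes, 6 of 11 tested rose and 2 fell between stages in WT, with a median of 0.83, and 6 of 13 rose and 2 fell in *Gli3*-/- buds, with a median of 0.37. In WT *Gli1* and *Hoxa13* entered the test only through the E10.5 libraries. The same held for *Hoxd12* and *Hoxa13* in *Gli3*-/- buds, where *Foxf1* entered only through the E9.25 libraries. In WT limma called 0 lower without E9.25 WT replicate 1 or E10.5 WT replicate 3 or 4, and 1 lower without E10.5 WT replicate 1 or 2. *Hoxd11* had the largest change in both, 3.84 in WT and 6.93 in *Gli3*-/- buds. In the interaction 4 of 13 HH target genes were higher, namely *Hoxd13*, *Hoxd12*, *Hoxd11* and *Hoxa13*, and *Foxf1* was lower. Limma called 0 of 18 regulators of SMO and the cilium. It called 0 of 10 genes of ligand processing, release and spread and 0 of 3 GLI factors. At an unadjusted p under 0.05 these 3 lists had 11, 4 and 1, beside 3443 of all 16368 genes. Those list counts were 3, 2 and 1 without E9.25 WT replicate 2, beside 2451 of all 16341 genes. With that library left out the target genes called were as before, both here and between stages in WT. Limma called *Prkacb*, *Evc* and *Evc2* of the regulators, *Scube3* and *Gpc6* of ligand processing, release and spread, and *Gli2* lower in the interaction without E9.25 WT replicate 1, and *Evc* also without E9.25 *Gli3*-/- replicate 1 or 4.

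The members did not follow 1 common pattern. Likeness of pattern was measured as the root mean square difference of log2(TPM + 1), centered on each gene's mean, over the 14 libraries, so that smaller values are more alike. *Hhip* and *Smo*, which varied least on this scale, were the closest pair (0.32). The scale compresses changes at a low TPM, so that the nearness of *Hhip* to *Smo* need not show a shared pattern. Between the E9.25 genotypes the ratio of mean TPM was 7.18 for *Hhip* and 1.30 for *Smo*. *Gas1* was nearer to *Smo* (0.40) than to *Cdon* (0.45) or *Boc* (0.47). *Cdon* was 0.46 from *Boc*. *Ptch1* was 0.73 from *Hhip*, which ranked 120 of the 16367 genes compared, and 1.38 from *Cdon*. The genes most like *Cdon* were *Srgap3* (0.23), *Epha7* (0.26) and *Col16a1* (0.28), those most like *Boc* were *Ldb2* (0.14), *Cbx8* (0.15) and *Iglon5* (0.16), and those most like *Gas1* were *Jak3* (0.11), *Tub* (0.13) and *Wnt9b* (0.13). For *Ptch1* the nearest genes were *Fgf9* (0.51), *Irs1* (0.52) and *Cdk6* (0.53), while *Ptch1* itself varied by 1.04 around its own mean. *Smo* was nearest to *Keap1* (0.053), *Dbnl* (0.060) and *Ccni* (0.060), and *Hhip* to *Intu* (0.20), *Gm14584* (0.21) and *Mtcl1* (0.21). The points share their libraries, and these distances are a description without a test.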

How the data were processed

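RNA-seq tables of 14 libraries of mouse forelimb buds were used, grouped by the sample labels. The authors isolated RNA using TRIzol, obtained single-end reads (100 bases) and aligned them with HISAT2. The authors deposited, per gene ID, coverage (mean read depth per base), FPKM and TPM. The tool that made these values and its annotation are not given in the sources used here. Of 33122 gene IDs, 99.8% overlapped the RefSeq gene of the same symbol in GRCm38.p6, and coordinates are those of the tables.

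TPM was summed where a gene ID had several lines. Coverage and FPKM were used to estimate reads per library. Comparisons used R 4.3.3 and limma 3.58.1, with lmFit and a trended eBayes, on log2(TPM + 1). Genes entered if 3 or more libraries under comparison had a TPM of 1 or more. Calls used two-sided Benjamini-Hochberg adjusted p under 0.05. No count test was run, since the tables hold no counts. Other steps used Python 3.11.15 with SciPy 1.17.1, NumPy 2.4.6, pandas 2.3.3 and matplotlib 3.10.9. The fit was tested on simulated data for each comparison.

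The members, the pathway and marker lists and the tests were chosen with earlier results of these data known. Named were the 6 members, *Gli3*, at most the 4 largest changes among called genes per pathway list, the 3 genes most like each member, and overlapping genes. *Gli1*, *Gli2*, *Shh*, *Ihh*, *Dhh*, the tissue markers named and genes whose call changed with a setting were added after their values were seen. Alternatives were quantile normalization, size factors by median of ratios, FPKM values, sample quality weights, an untrended eBayes, a pseudocount of 0.1, a TPM filter of 5 or none, replicate blocks, 1 model of all 14 libraries and each library left out in turn. No promoter of *Boc* was used here. Some genes of the pathway lists are not reported here and are left out of the lists' counts.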

Additional observations from a re-analysis of the deposited data

Results flagged for a closer look

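The genotype difference of *Cdon* differed between the stages by the test of the difference itself. The log2 difference at E10.5 minus that at E9.25 was -1.63 (limma adjusted p = 0.0173), from 0.20 at E9.25 to -1.42 at E10.5, and stage cannot be told apart here from the part of the bud taken. All 3 E10.5 *Gli3*-/- libraries were below all 4 WT libraries, while the E9.25 genotypes overlapped. Of the 6 members in the 2 groups of 4 libraries, 12 cases in all, 0 had a library far enough from the others to stand apart by Dixon's criterion.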

How the results depend on the processing

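At E9.25 the count of members that changed with genotype (1) was 0 with a pseudocount of 0.1 or no filter and 0 to 1 when each library was left out in turn. At E10.5 it (3) was 2 to 4 in all settings. Between stages in WT it (5) was 3 with quantile normalization, median-of-ratios size factors or the replicate block, and 3 to 5 with each library left out. In *Gli3*-/- buds it (1) was 2 with quantile normalization, median-of-ratios size factors or FPKM, 3 with sample quality weights, and 1 to 3 with each library left out. For the interaction it (1) was 0 with no filter or the replicate block, 3 with sample quality weights, and 0 to 3 with each library left out. Directions turned only for differences near 0 that had not passed, or for *Smo*. At E9.25 *Cdon* was -0.086 with quantile normalization, -0.025 with median-of-ratios size factors, -0.020 with sample quality weights and -0.12 to 0.46 with each library left out. *Gas1* was -0.048, -0.17 and, with FPKM, -0.085, and -0.039 to 0.19 with each library left out. *Smo* with median-of-ratios size factors was 0.013 between genotypes at E10.5 and -0.020 between stages in WT. With each library left out it was -0.093 to 0.021 between genotypes at E10.5 and -0.17 to 0.049 between stages in *Gli3*-/- buds. The cause of these moves was not tested.

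Counts over all genes moved more. Between genotypes at E9.25 they went from 20 to between 0 (no filter) and 1185 (1 model of all 14 libraries), and at E10.5 from 747 to between 164 (replicate block by titles) and 1356 (sample quality weights). Between stages they went from 7520 to between 4699 and 8556 in WT and from 3853 to between 2129 and 6520 in *Gli3*-/- buds, and for the interaction from 348 to between 42 and 1433.

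Whether the replicate numbers pair the libraries cannot be settled from 3 same-numbered pairs per comparison. These pairs had a mean r of -0.18 across genes at E9.25 and -0.054 at E10.5. By the numbers that the E10.5 tables carry the mean was 0.19, with a lowest pair of 0.052, beside -0.063 over the other pairs. At E10.5 a replicate block by titles left 2 members called (*Gas1* had a limma adjusted p of 0.104) and the block by table numbers left 3. At E9.25 the replicate block left 1 called. In the limma fits that called 0 members, 1 to 3 had an unadjusted p under 0.05. Low levels limit *Hhip*.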
